A study of Mus musculus with 2 samples.

Results

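S cells were 52 single mouse fibroblasts whose transcripts for 6 DNA replication genes ranked high on their plate while their transcripts for 6 mitotic genes did not. They came from 768 sorted wells, of which 767 held a cell with at least 1000 genes and were ranked. The S score was the mean z value of log2(CPM + 1) over Mcm3, Mcm5, Mcm6, Pcna, Cdc6 and Ccne2, where CPM is a gene's count scaled to the cell's total count. The G2M score was the same mean over Top2a, Mki67, Cenpf, Ccnb1, Plk1 and Cdc20. S cells were in the top 20% of the S score on their plate and outside the top 20% of the G2M score, which gave 29 cells on plate 1 and 23 on plate 2. Non-cycling cells were below the plate median of both scores, 126 on plate 1 and 128 on plate 2. G2M cells were in the top 20% of the G2M score only, 29 and 23. A further 102 cells were in the top 20% of both scores. The label S phase is used here for the rule alone, because DNA content was not measured in the data analysed.

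The cells were NIH3T3-Rev-VNP1-H2B-iRFP fibroblasts, a mouse NIH3T3 line that carries a Venus reporter of the clock gene Nr1d1 and a near-infrared (iRFP) label on histone H2B. All were unsynchronized cultures grown for about 5 days to 95% confluency, a crowded state, and both plates shared the line, the medium and the absence of any treatment. Cells were sorted by Venus into 4 gates per plate and profiled by FLASH-seq, which reads full-length transcripts of single cells. Plate 1 held only the high iRFP sort and plate 2 only the low iRFP sort, so iRFP and plate cannot be told apart, and nothing in the labels says that the plates were separate cultures.

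A cell commits to a round of division in G1, when D-type cyclins release E2F transcription factors from the retinoblastoma family. E2F then raises the genes for the MCM helicase that licenses origins, for the sliding clamp PCNA and for nucleotide synthesis, and DNA is copied in S phase. Mitotic genes follow later through other promoter elements, and fibroblasts that leave the cycle at confluency raise growth-arrest and matrix genes.

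To show what such elements look like, a stretch of 150 bases directly upstream of the start is given for 4 genes. They were picked because they hold a match, which most genes called higher in S cells did not. The sequences are RefSeq, build GRCm38.p6, 5′ to 3′ along the gene, and the counts themselves carry no coordinates. Capitals mark matches on either strand to the E2F-type letters TTTCCCGC, TTTCGCGC, TTTGCCGC or TTTGGCGC, or to the CHR-type letters TTTGAA, the cell cycle homology element. The first pair are S score genes, Cdca7 was higher in S cells than in non-cycling cells, and Cdc20 is a G2M score gene.
Mcm6 (chr1:128359706-128359855, minus strand): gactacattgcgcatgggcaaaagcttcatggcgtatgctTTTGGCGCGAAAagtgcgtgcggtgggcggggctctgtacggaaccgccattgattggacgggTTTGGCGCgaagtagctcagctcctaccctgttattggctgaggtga
Cdc6 (chr11:98908001-98908150, plus strand): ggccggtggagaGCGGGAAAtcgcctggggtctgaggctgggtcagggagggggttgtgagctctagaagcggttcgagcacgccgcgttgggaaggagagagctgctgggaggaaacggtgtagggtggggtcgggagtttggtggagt
Cdca7 (chr2:72476069-72476218, plus strand): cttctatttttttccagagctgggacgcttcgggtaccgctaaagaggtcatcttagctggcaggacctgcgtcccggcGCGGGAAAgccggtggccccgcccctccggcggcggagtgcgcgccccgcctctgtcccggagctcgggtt
Cdc20 (chr4:118437344-118437493, minus strand): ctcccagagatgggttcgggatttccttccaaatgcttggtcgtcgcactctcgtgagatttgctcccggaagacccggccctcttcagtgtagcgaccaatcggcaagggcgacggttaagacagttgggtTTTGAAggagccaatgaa
In Mcm6, which encodes a helicase subunit, the run of capitals farther from the start holds 2 overlapping E2F-type matches, 1 on each strand. Cdc6, a loader of the helicase, and Cdca7, a partner of the chromatin remodeller Hells, each hold the letters GCGGGAAA, the opposite-strand form of TTTCCCGC. Cdc20, an activator of the anaphase-promoting complex, holds TTTGAA 18 to 13 bases before the start.

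Over windows from 250 bases before to 50 after the start, E2F-type letters stood in 2.26% of all 32851 windows and in 4.71% of the 9578 tested genes with a window. Of the 5 S score genes with a window 4 held them, and of the 6 G2M score genes none did. CHR-type letters stood in 17.9% of all windows and 14.4% of the tested genes, in 5 of 6 G2M score genes and in none of the 5 S score genes. Among genes that edgeR called higher in S than in non-cycling cells, 2 of 11 with a window (18.2%) held E2F-type letters, and 0 of 11 called lower did. With the larger call set of DESeq2 the shares were 10.6% of 180 higher genes and 1.54% of 130 lower genes. For CHR-type letters the shares were 9.09% of higher and 36.4% of lower genes with edgeR, and 15% and 16.2% with DESeq2. A match is a run of letters and was not tested for binding.

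**Figure D1:**
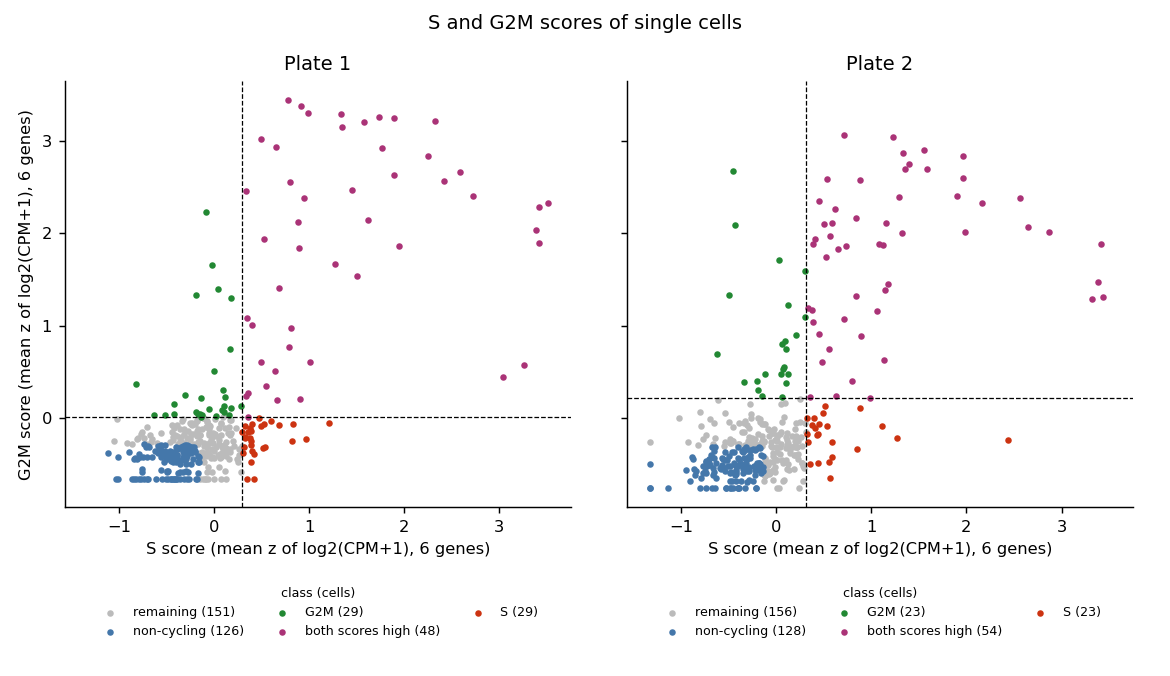
S score (x axis) and G2M score (y axis) of each of the 767 cells on plates 1 and 2, in units of mean z of log2(CPM + 1). Dashed lines are the cuts of the top 20%, and the S cells (red) lie right of the vertical line, with medians of 0.397 and 0.495 and a maximum of 1.21 on plate 1 and 2.43 on plate 2. The highest S scores of each plate belong to cells high in both scores.

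S cells held mostly the lower part of the high S scores. Of the 77 cells per plate in the top 20% of the S score, 48 on plate 1 and 54 on plate 2 were also in the top 20% of the G2M score and so were no S cells. The median S score of the S cells was 0.397 on plate 1 and 0.495 on plate 2, against 0.998 and 1.03 in the cells high in both scores and -0.426 and -0.429 in the non-cycling cells. The highest S cells scored 1.21 and 2.43. The cut fell at 0.293 and 0.314. The lowest S cells scored 0.294 and 0.320, and the highest cells left outside scored 0.291 and 0.309. Within 0.1 of the cut lay 29 cells on plate 1, 14 of them S cells, and 32 on plate 2, 7 of them S cells.

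The score genes are given as a description, since they chose the cells. Mcm3, an MCM helicase subunit, stood at 27.8 and 38.4 CPM in the summed S cells of plates 1 and 2, at 4.85 and 7.08 in non-cycling cells and at 132 and 118 in the cells high in both scores. Mcm6 stood at 40.9 and 51.7 CPM in S cells, 8.64 and 10.9 in non-cycling cells and 190 and 164 in cells high in both. Pcna had a median over cells of 20.8 and 25.2 CPM in S cells, 10.7 and 9.21 in non-cycling cells and 28.2 and 33.9 in cells high in both. In all 3 genes the S cells lay between the other classes on both plates. Cdc6 was detected in 27.6% of S cells on plate 1 and 17.4% on plate 2, against 47.9% and 48.1% of the cells high in both, and its median in S cells was 0 CPM. Ccne2, the cyclin E2 gene, had no such order on both plates, with a median of 3.46 and 8.55 CPM in S cells and 5.37 and 4.23 CPM in cells high in both. Of the mitotic score genes, Top2a, a topoisomerase, stood at 15.5 and 17.0 CPM in S cells and 4.31 and 6.36 in non-cycling cells. Mki67 had a median of 0 CPM in S cells of plate 1 and 1.19 on plate 2.

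When the S score was remade from Mcm3, Mcm5 and Mcm6, 29 of the 52 S cells stayed among the 50 then chosen, and Pcna, Cdc6 and Ccne2 could be tested. When it was remade from Pcna, Cdc6 and Ccne2, 33 stayed among 81, and Mcm3, Mcm5 and Mcm6 could be tested. None of these 6 held-out markers was called by edgeR's quasi-likelihood test (adjusted p 0.25 to 0.48), and DESeq2 called 1. All 6 estimates were positive, from 0.60 for Mcm3 to 3.54 for Cdc6 on the log2 scale, and 5 had an unadjusted edgeR p under 0.05. The Cdc6 estimate had an SE of 1.23 and rested on very low levels. They were 0.211 and 0.161 CPM in non-cycling cells and 0.894 and 3.32 CPM in S cells of plates 1 and 2. Membership also moved when counts were removed at random: after thinning each cell to 150000 counts, 26 of the 52 stayed among the 53 S cells then chosen. Whether membership followed a cell's own depth was not tested.

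The summed S cells held 24283993 and 19659086 counts, and the summed non-cycling cells 106725447 and 103452045. Single cells held 2100 to 1618022 counts. S cells had a median of 11331 and 11167 genes against 10914 and 10948 in non-cycling cells, or 9236 and 9210 against 9018 and 9065 at 150000 counts. The median mitochondrial share was 9.01% and 7.89% in S cells and 9.89% and 8.10% in non-cycling cells. The fibroblast markers were present throughout, with a summed level of 18909 and 19050 CPM in S cells and 21573 and 22243 in non-cycling cells. Of 11 matched markers of immune, endothelial, epithelial and muscle cells, Ptprc, Csf1r and Epcam were at 0 in both classes on both plates. Their summed level was 81.2 and 36.8 CPM in S cells and 38.4 and 34.4 in non-cycling cells. The value of plate 1 was mostly Krt14, a keratin, at 59.8 CPM, and the part of these markers in the results was not tested.

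The first comparison asked which other genes differed between S cells and non-cycling cells. Counts were summed per plate and class, and S, non-cycling and G2M sums of both plates entered 1 edgeR quasi-likelihood fit with the plate as a block. Of 14547 genes outside the scores, 27 (0.186%) passed a Benjamini-Hochberg adjusted p of 0.05, with 12 higher in S cells (0.0825%) and 15 lower (0.103%). At an unadjusted p under 0.05 there were 941 higher (6.47%) and 904 lower (6.21%). DESeq2 called 407 of 12853 genes with an adjusted p (3.17%), 236 higher (1.84%) and 171 lower (1.33%), including all 27. Each of the 27 had the same sign on both plates, and each kept its sign when S and non-cycling cells were compared inside Venus gates, where 12 of the 27 passed. The fit favours genes on which the plates agree, and the gates hold the same cells, so these signs are no separate support. Without the plate block 6 genes passed, all of them among the 27. With a stricter cell filter, which changed the ranking and kept 51 of the 52 S cells and 251 of the 254 non-cycling cells in their class, 15 genes passed. When the cut of both scores was moved, 1184 genes passed at the top 10%, with 9 of the 52 S cells among the 25 then chosen, and 1 at the top 30%. The score from Pcna, Cdc6 and Ccne2 alone also gave 1.

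The genes that rose included 1 member each of the licensing, nucleotide supply and G1 control lists (Mcm2, Tk1 and Ccnd1). Pclaf, the PCNA clamp-associated factor, stood at 0.665 and 2.19 CPM in non-cycling cells and at 2.88 and 19.0 CPM in S cells of plates 1 and 2. S cells were the higher class on both plates, but the S sum of plate 1 lay close to the non-cycling sum of plate 2. The log2 change was 2.71 ± 0.25 (SE; edgeR adjusted p = 0.0153), and Pclaf was detected in 44.8% and 69.6% of S cells against 16.7% and 32.8% of non-cycling cells. Tk1, the thymidine kinase of the nucleotide salvage pathway, stood at 0.525 and 1.37 CPM in non-cycling cells and 2.51 and 5.65 CPM in S cells. Its groups did not overlap, which held for 23.3% of all tested genes in this direction and for 23.2% in the other. The log2 change was 2.13 ± 0.24 (SE; edgeR adjusted p = 0.0314). Ccnd1, cyclin D1, the G1 cyclin that activates CDK4 and CDK6, stood at 20.8 and 29.3 CPM in non-cycling cells and 81.0 and 108 CPM in S cells. It rose by 1.91 ± 0.17 on the log2 scale (SE; edgeR adjusted p = 0.0142), with a detection of 100% and 91.3% in S cells against 77.8% and 75.0%.

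Cdca7 stood at 5.53 and 9.12 CPM in non-cycling cells and 15.8 and 34.2 CPM in S cells, without overlap, and rose by 1.70 ± 0.18 on the log2 scale (SE; edgeR adjusted p = 0.0248). Mcm2, the subunit that completes the MCM helicase with Mcm4 and Mcm7 beside the score genes, stood at 19.6 and 18.2 CPM in non-cycling cells and 40.5 and 55.3 CPM in S cells. Its rise was 1.31 ± 0.17 on the log2 scale (SE; edgeR adjusted p = 0.0483), close to the threshold. The remaining higher genes were of other kinds. Mthfd1l, a mitochondrial enzyme of one-carbon folate metabolism, rose by 1.06 on the log2 scale and Ybx1, a DNA- and RNA-binding protein, by 0.63. Serpinb9b, a serpin protease inhibitor, rose by 1.99, and Tent5b, a poly(A) polymerase, by 1.64. Steap1, a membrane protein of the STEAP family, rose by 1.36, Itgb7, the integrin beta 7 subunit, by 1.35 and Eno3, an enolase, by 1.01. Serpinb9b belongs to a family of near-identical neighbours and is uncertain for that reason, and it was detected in 82.8% and 87.0% of S cells against 46.8% and 54.7% of non-cycling cells.

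The genes that fell included 3 members of the matrix and contractile list (Fn1, Bgn and Mmp2) and 1 of the quiescence list (Gas1). Fn1, fibronectin, stood at 6253 and 5939 CPM in non-cycling cells and 3682 and 3414 CPM in S cells. Both S sums lay below both non-cycling sums, and the log2 change was -0.79 ± 0.10 (SE; edgeR adjusted p = 0.0483). Bgn, the proteoglycan biglycan, stood at 4430 and 3963 CPM against 2581 and 2297 in S cells, a log2 change of -0.79 ± 0.10 (SE; edgeR adjusted p = 0.0378). Fstl1, a secreted glycoprotein, stood at 1826 and 1723 CPM against 1165 and 1037, a log2 change of -0.70 ± 0.07 (SE; edgeR adjusted p = 0.0230). Gas1, a growth arrest-specific gene, stood at 638 and 757 CPM in non-cycling cells and 400 and 458 in S cells. It fell by 0.71 ± 0.07 on the log2 scale (SE; edgeR adjusted p = 0.0248). None of these 4 overlapped between the classes, and 23.2% of all tested genes likewise had both S sums below both non-cycling sums.

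Mmp2, a matrix metalloproteinase, fell by 0.74 on the log2 scale, Col8a1, a collagen of short-chain type, by 0.81 and Ptn, the growth factor pleiotrophin, by 0.88. F3, tissue factor, fell by 0.87, Marcksl1, an actin- and membrane-binding protein, by 0.97 and Ccl9, a chemokine, by 1.08. Bmf, a BH3-only cell death gene, fell by 1.01 and Capn6, a calpain family member, by 1.48 (edgeR adjusted p = 0.00817). Spp1, osteopontin, fell by 1.1, with 41.7% of its S counts on plate 2 in 1 cell. When cells were ranked inside Venus gates, 7 of the 27 genes no longer passed. The log2 change was then -0.29 for Bgn (edgeR adjusted p = 0.502), -0.38 for Spp1, -0.47 for Col8a1 and -0.48 for Marcksl1, and it was -1.08 for Mfap4, -0.82 for C4b and 0.42 for Ybx1. The largest falls were in rarely detected genes. Mfap4, a microfibril protein, fell by 2.48 and was detected in 13.8% and 17.4% of S cells against 22.2% and 32.8%. C4b, a complement component, fell by 2.57, and 1 cell held 73.9% of its S counts on plate 1. All 15 genes that fell were below the non-cycling level in G2M cells too by sign, and all 12 that rose were above it. Those 2 comparisons share the non-cycling cells.

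**Figure D2:**
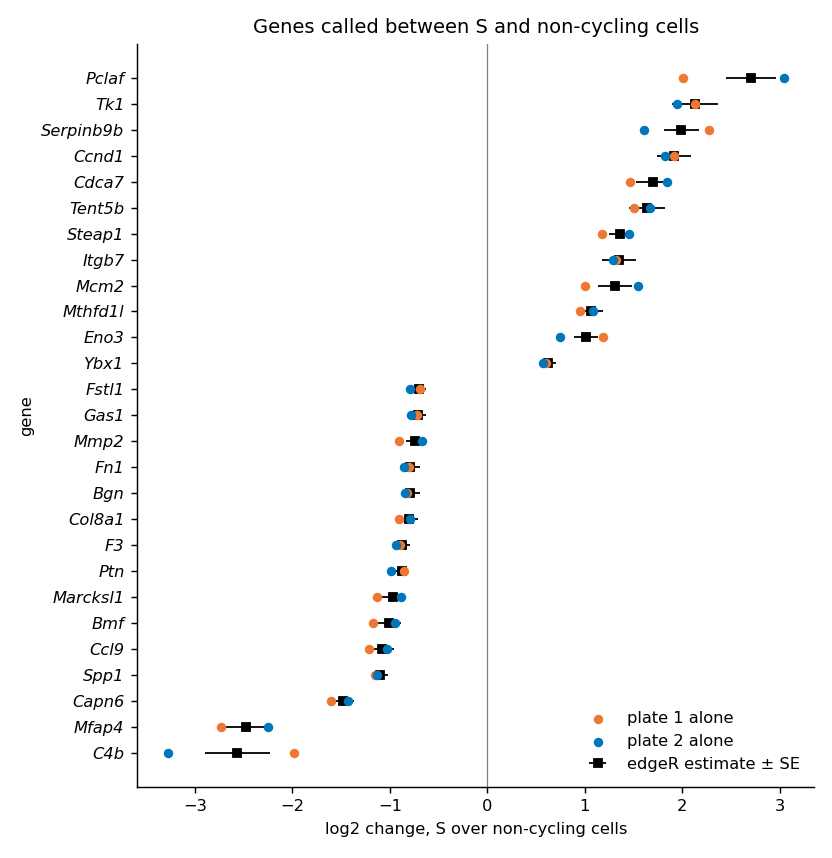
log2 change of S over non-cycling cells (x axis) for the 27 called genes (y axis), as the edgeR estimate with its SE (black) and for plates 1 and 2 alone (orange, blue). All points of a gene lie on 1 side of 0 on both plates, which the choice of genes by the same fit favours.

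Of the 27 genes, 8 share exon bases with another annotated gene, 2 of them on the same strand (Capn6 and Spp1). Whether counting used strand is not given in the sources used here, so reads of Ccnd1, Tk1, Serpinb9b, Mfap4, Fn1 and Gas1 cannot be told apart from those of a gene on the opposite strand in the shared bases.

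Lists of genes by role were then read against these backgrounds. In origin licensing and firing, 1 of 26 tested genes was called higher (Mcm2) and none lower, and DESeq2 called 5 higher and 0 lower. The list's median log2 change was 0.32, against -0.01 for all tested genes. Mcm4 stood at 25.4 and 27.2 CPM in non-cycling cells and 45.0 and 71.6 in S cells, without overlap, with a log2 change of 1.11 ± 0.16 (SE; edgeR adjusted p = 0.0638). Cdt1, the licensing factor that loads the helicase, had 1.73 ± 0.27 (SE; edgeR adjusted p = 0.0827), from 5.14 and 5.98 CPM to 11.7 and 28.8 CPM. Gins3, a subunit of the active helicase, had an estimate of -1.17 (edgeR adjusted p = 0.242). It was detected in 34.5% and 13% of S cells on plates 1 and 2 against 41.3% and 44.5% of non-cycling cells.

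Among polymerase and fork genes, none of 32 was called by edgeR in either direction, with 8 higher and 1 lower at an unadjusted p under 0.05, and DESeq2 called 2 higher, Rpa1 and Dna2. The list median was 0.31. Rpa1, the large subunit of the single-strand binding protein, had an estimate of 0.44 and Dna2, a nuclease-helicase, one of 2.40 (edgeR adjusted p = 0.200 and 0.146). In nucleotide supply, 1 of 24 was called higher (Tk1), 17 were higher and 0 lower at an unadjusted p under 0.05, and the list median was 0.46. DESeq2 called 7 of these genes higher. Shmt2, the mitochondrial serine hydroxymethyltransferase, stood at 74.9 and 63.4 CPM in non-cycling cells and 116 and 111 in S cells (log2 change 0.71 ± 0.11, SE; edgeR adjusted p = 0.0827). Ppat, the first enzyme of purine synthesis, stood at 15.4 and 16.9 CPM against 27.6 and 37.1 in S cells. Rrm2, the regulated subunit of ribonucleotide reductase, stood at 3.51 and 3.55 CPM in non-cycling cells, 6.71 and 9.05 in S cells and 82.0 and 92.9 in cells high in both scores, and was not called (edgeR adjusted p = 0.242).

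Of 23 chromatin assembly and methylation upkeep genes none was called by edgeR in either direction, 8 were higher and 0 lower at an unadjusted p under 0.05, and DESeq2 called 5 higher. Uhrf1, which guides maintenance methylation, stood at 7.29 and 10.8 CPM in S cells, 3.68 and 3.33 in non-cycling cells and 92.6 and 102 in cells high in both. Hells, the remodeller that Cdca7 partners, stood at 9.96 and 15.6 CPM in S cells and 6.05 and 4.84 in non-cycling cells. Among 31 checkpoint and repair genes none was called by edgeR, with 7 higher and 0 lower at an unadjusted p under 0.05, and DESeq2 called 3 higher. Chek1, the kinase that responds to stalled forks, stood at 2.92 and 5.49 CPM in S cells against 0.572 and 1.12 (log2 change 2.31 ± 0.43, SE; edgeR adjusted p = 0.116). Msh6, a mismatch repair gene, stood at 47.2 and 54.7 CPM against 28.9 and 30.9 (edgeR adjusted p = 0.0882).

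The E2F and G1 control list had 1 of 29 called higher (Ccnd1), 0 lower and a median of 0.16. At an unadjusted p under 0.05, 5 were higher and 2 lower, and DESeq2 called 2 higher and 1 lower. The lower DESeq2 call was Cdkn2c, with an estimate of -0.38 (edgeR adjusted p = 0.184). Skp2, a ubiquitin ligase subunit that targets p27, had an estimate of 0.84, and Cdkn1b, which encodes p27, one of -0.28 (edgeR adjusted p = 0.113 and 0.294). Ccna2, cyclin A2, which works in S phase and G2, stood at 1.77 and 2.49 CPM in S cells against 0.403 and 0.735 in non-cycling cells and 210 and 250 in cells high in both scores. It was detected in 34.5% and 34.8% of S cells. Of 23 quiescence genes 1 was called lower (Gas1) and 0 higher, and 17 were lower on both plates, where 38.3% of all tested genes were. The list median was -0.46, and DESeq2 called 7 lower and 1 higher. Txnip, an inhibitor of thioredoxin, stood at 113 and 84.4 CPM in S cells against 165 and 178, and Pdgfra, a growth factor receptor, at 83.7 and 103 against 123 and 161. Klf4, a transcription factor of the same list, lay on the other side, at 285 and 299 CPM in S cells against 232 and 221 (edgeR adjusted p = 0.181).

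**Figure D3:**
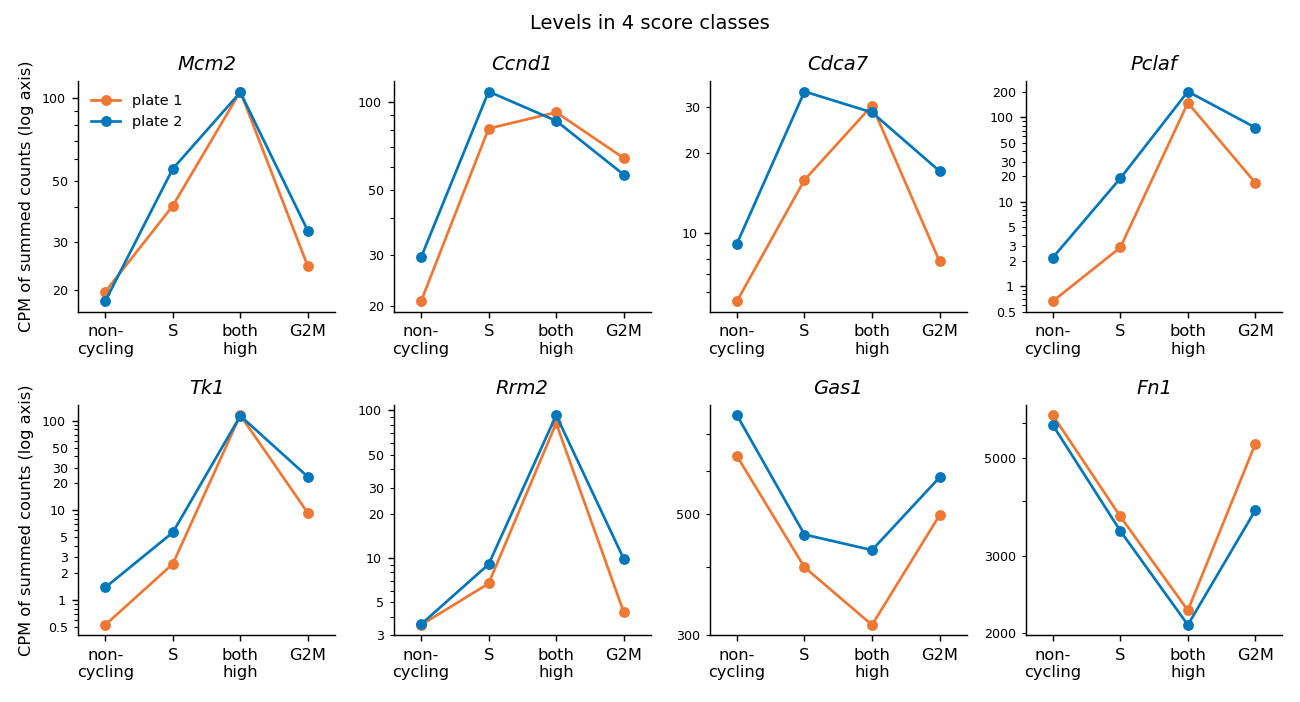
Level in CPM of summed counts (y axis, log scale) of 8 genes in non-cycling cells, S cells, cells high in both scores and G2M cells (x axis) on plates 1 and 2. Mcm2, Pclaf, Tk1 and Rrm2 are higher in the cells high in both scores than in S cells, Gas1 and Fn1 are lower there, and Ccnd1 and Cdca7 differ in that order between the plates.

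Most genes of the ribosome biogenesis list had positive estimates, although edgeR called none of the 26 in either direction. Of these, 25 estimates were positive, 23 were higher on both plates where 25.7% of all tested genes were, and 17 were higher and 0 lower at an unadjusted p under 0.05. DESeq2 called 10 higher and 0 lower, and the list median was 0.44. Nop56, a nucleolar protein that modifies ribosomal RNA, stood at 142 and 198 CPM in S cells against 86.0 and 91.4 (log2 change 0.91 ± 0.13, SE; edgeR adjusted p = 0.0617). The list and its counts also include Srm and Odc1, which encode enzymes of polyamine synthesis and not ribosome biogenesis factors. Srm, spermidine synthase, stood at 113 and 122 CPM against 69.3 and 66.8 (log2 change 0.78 ± 0.13, SE; edgeR adjusted p = 0.10).

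In the matrix and contractile list 3 of 31 were called lower (Fn1, Bgn and Mmp2) and 0 higher, with 14 lower and 4 higher at an unadjusted p under 0.05 and a list median of -0.20. DESeq2 called 9 lower and 2 higher. Cnn2, a calponin that binds actin, lay on the higher side, at 629 and 516 CPM in S cells against 366 and 340 (log2 change 0.69 ± 0.12, SE; edgeR adjusted p = 0.10). Col3a1, a fibrillar collagen gene, stood at 597 and 1014 CPM in S cells against 1428 and 1730 (log2 change -1.0 ± 0.19, SE; edgeR adjusted p = 0.116). Col1a1 stood at 7759 and 7597 CPM against 9415 and 9902 (edgeR adjusted p = 0.105). The summed level of the list was 29990 and 28076 CPM in S cells and 37772 and 37906 in non-cycling cells. Of 10 fibroblast markers 1, Fstl1, was called lower and 0 higher by edgeR. At an unadjusted p under 0.05, 6 were lower and 1 higher, and DESeq2 called 5 lower and 0 higher. None of 15 tested p53 target genes was called by edgeR, with 2 higher and 1 lower at an unadjusted p under 0.05 and 1 called by DESeq2, and their median was 0.07.

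The second comparison asked where S cells differed from G2M cells, tested directly. Of the 14547 genes 15 were called by edgeR, 1 higher in S cells (0.00687%) and 14 lower (0.0962%), and DESeq2 called 241, 105 higher and 136 lower. Other definitions of the classes also moved the split. It was 26 higher and 34 lower when cells were ranked inside Venus gates and 104 and 145 at the top 10%. With the cells high in both scores counted as S cells it turned, to 193 higher and 17 lower, and 1 of the 15 genes kept its sign. Because the rule kept high mitotic scores out of the S class and put them into the G2M class, a lower level of mitotic genes was partly set by the choice. Of 49 G2/M list genes 9 were called lower in S than in G2M cells and 0 higher, with a median of -2.42. At an unadjusted p under 0.05, 41 were lower, where 5.62% of all genes were, and 0 higher, where 5.77% were. The same list had a median of 0.68 against non-cycling cells, where edgeR called none, 14 were higher and 0 lower at an unadjusted p under 0.05 and DESeq2 called 7 higher. That difference was also partly set by the choice, since non-cycling cells lay below the plate median of the G2M score. The median G2M score was -0.216 and -0.174 in S cells and -0.422 and -0.523 in non-cycling cells. Cenpa, the centromeric histone, stood at 1.81 and 10.1 CPM in S cells, 65.7 and 169 in G2M cells and 1.42 and 2.65 in non-cycling cells. Its log2 change against G2M cells was -4.41 ± 0.31 (SE; edgeR adjusted p = 0.00872). Birc5, a subunit of the chromosomal passenger complex, fell by 3.35 against G2M cells, Tacc3, a spindle protein, by 3.58, Pttg1, securin, by 2.92 and Knstrn, a kinetochore protein, by 2.22.

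Pclaf and Tk1 were called in both comparisons and took a middle place. Pclaf stood at 2.88 and 19.0 CPM in S cells, against 16.8 and 75.8 in G2M cells, a log2 change of -2.17 ± 0.23 (SE; edgeR adjusted p = 0.0423). Tk1 stood at 2.51 and 5.65 CPM in S cells, against 9.31 and 23.6 in G2M cells, a log2 change of -1.95 ± 0.23 (SE; edgeR adjusted p = 0.0468). Both genes were thus lower in the S class than in the class defined by mitotic genes, on each plate. Ccn1, a secreted matricellular gene, was the 1 gene higher in S cells, at 342 and 300 CPM against 174 and 152 in G2M cells and 242 and 218 in non-cycling cells. Its log2 change against G2M cells was 1.01 ± 0.08 (SE; edgeR adjusted p = 0.0147). Mcm2 and Ccnd1 had positive estimates against G2M cells that did not pass, 0.78 and 0.66 (edgeR adjusted p = 0.215 and 0.259).

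**Figure D4:**
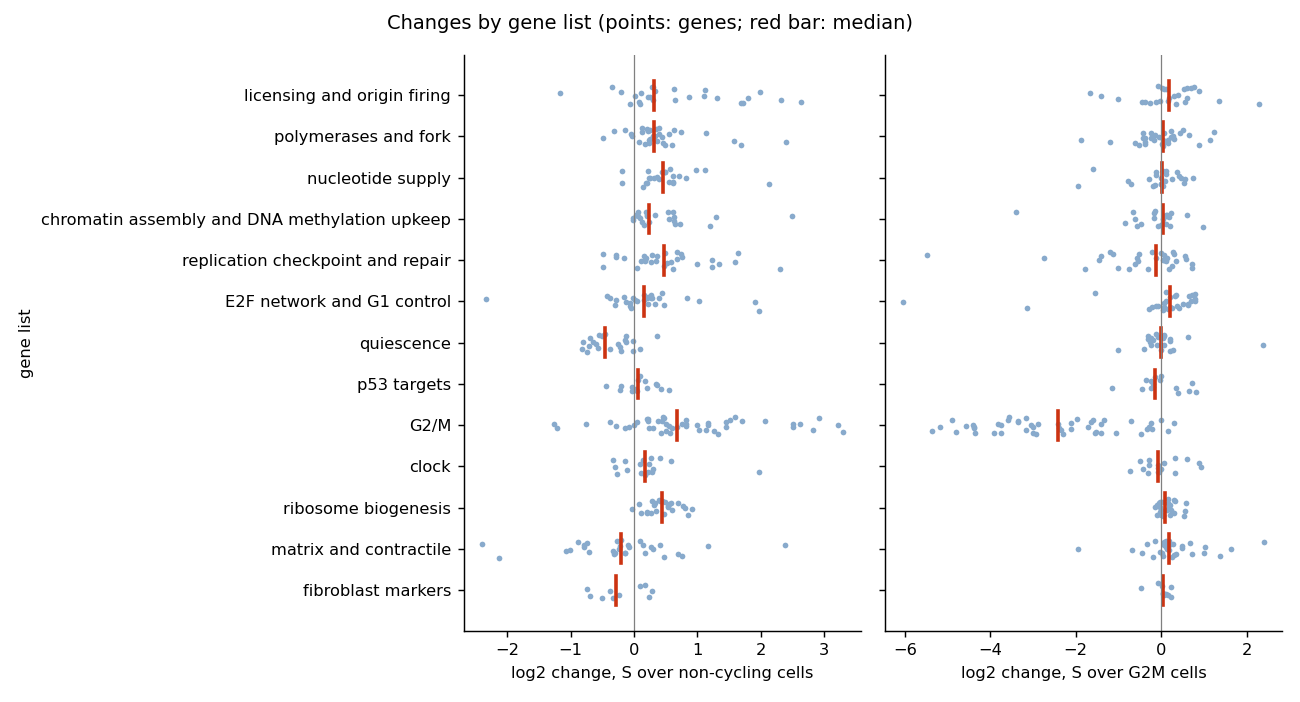
log2 change of each tested gene (points, x axis) by gene list (y axis), for S over non-cycling cells (left) and S over G2M cells (right), with the list median in red. The G2/M list has a median of 0.68 on the left and -2.42 on the right, and the quiescence list -0.46 on the left and 0.01 on the right.

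The clock genes were read next, since Venus, the sort axis, reports a clock gene. The circadian clock is a feedback loop in which Clock and its partner Arntl (Bmal1) activate the Per, Cry and Nr1d genes, whose products repress it. None of the 17 tested clock genes was called between S and non-cycling cells by edgeR, with 2 higher and 1 lower at an unadjusted p under 0.05. Hlf and Npas2 were too low to be tested. Nr1d1 stood at 451 and 515 CPM in S cells and 450 and 371 in non-cycling cells, so the classes were level on plate 1 and apart on plate 2. Its log2 change was 0.22 ± 0.16 (SE; edgeR adjusted p = 0.633). The reporter transcript counted as YFP stood at 222 and 276 CPM in S cells and 222 and 196 in non-cycling cells, a log2 change of 0.22 ± 0.17 (SE; edgeR adjusted p = 0.654). Compared inside Venus gates, both estimates were negative, -0.17 and -0.14 (edgeR adjusted p = 0.593 and 0.758).

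Ciart, a repressor of Clock and Arntl, stood at 19.3 and 12.9 CPM in S cells and 4.27 and 3.86 in non-cycling cells, without overlap. The log2 change of 1.98 ± 0.30 (SE) missed the threshold with edgeR (adjusted p = 0.0825) and passed with DESeq2 (adjusted p = 5.63e-07). However, 1 cell held 68.2% of the S counts of plate 1, and 58.6% and 69.6% of S cells had a count against 45.2% and 33.6% of non-cycling cells. Inside Venus gates the estimate was 1.08 (edgeR adjusted p = 0.25). The other 16 estimates lay between -0.33 for Bhlhe40 and 0.58 for Per2, both repressors in the loop. Per1 and Per3 had 0.26 and -0.14, Cry1 and Cry2 0.17 and 0.30, Arntl -0.27, Clock 0.29, Dbp 0.09, Tef 0.24 and Nr1d2 0.42. The median of the clock list was 0.17, with 12 of 17 positive, and -0.12 inside Venus gates, with 6 of 17 positive.

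Venus fluorescence was recorded at the sort in arbitrary intensity units. Its median was 6764048 and 7003071 units in S cells and 3535514 and 3101706 in non-cycling cells, a ratio of 1.91 on plate 1 and 2.26 on plate 2. Single cells overlapped widely: S cells ran from 52988 to 79493376 units on plate 1. The mean log2 ratio over plates was 1.06 ± 0.17 (SD, n = 2), and with 2 plates the smallest two-sided exact p is 0.5, so no test was made. Inside the 8 blocks of plate and gate the median log2 ratio was 0.20, with 7 of 8 blocks positive. With classes remade by ranking inside gates, the mean log2 ratio over plates was -0.31. That ranking gives every gate the same share of top scores, so it partly sets the Venus ratio itself. G2M cells had ratios of 2.25 and 9.20 over non-cycling cells.

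Over the 4 gates from dimmest to brightest, plate 1 held 7, 7, 7 and 8 S cells and plate 2 held 3, 6, 8 and 6, of 95 or 96 cells per gate. These are shares of 3.13% to 8.33%, and the exact 95% intervals of all gates overlapped. Non-cycling cells were 36.8%, 40.6%, 35.4% and 18.8% of the gates on plate 1 and 37.5%, 45.8%, 29.2% and 20.8% on plate 2. The brightest gate thus held the smallest share of non-cycling cells on both plates, while the share of S cells had no such order. Cells high in both scores made up 25% and 21.9% of the brightest gate, against 7.37% and 11.5% of the dimmest.

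**Figure D5:**
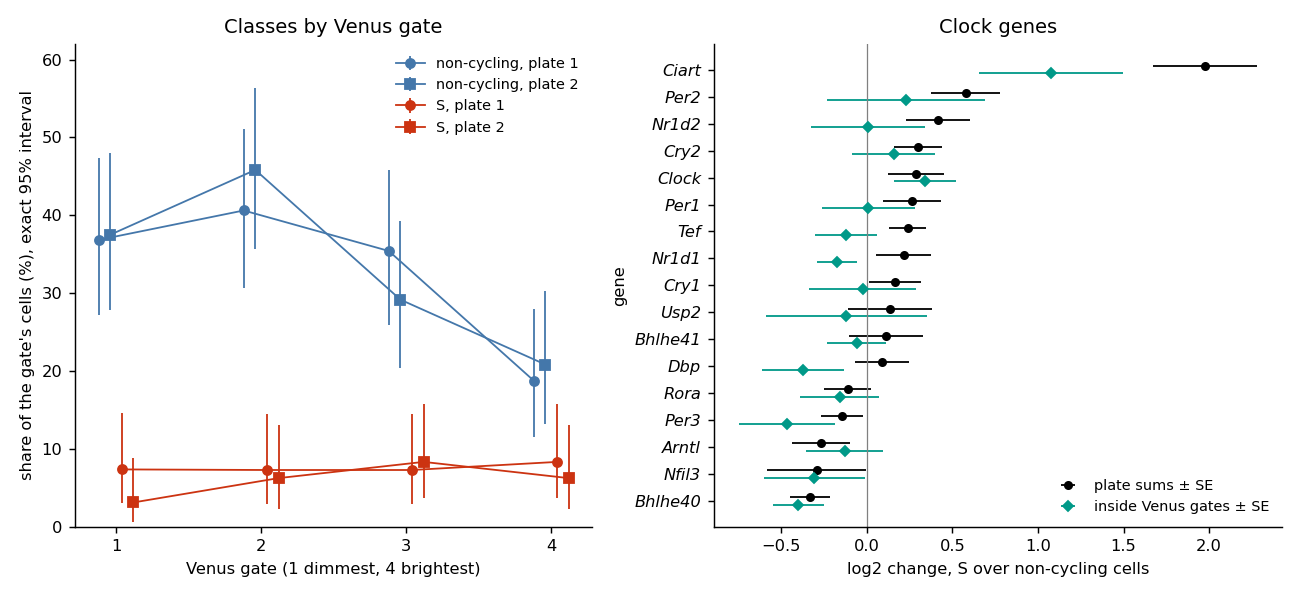
Left, share of each Venus gate's cells (y axis, percent, exact 95% intervals) in the S and non-cycling classes on plates 1 and 2, from the dimmest to the brightest gate (x axis); right, log2 change of the 17 tested clock genes (y axis) from plate sums (black) and inside Venus gates (green), with SE. The S share stays between 3.13% and 8.33%, and Ciart has the largest estimate in both settings.

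Forward scatter, which grows with cell size, had a median of 58217228 units in S cells and 51590072 in non-cycling cells on plate 1, a ratio of 1.13. On plate 2 it was 44053448 against 49500318, a ratio of 0.890. The 2 plates thus went opposite ways, with a mean log2 ratio of 0.003 ± 0.24 (SD, n = 2). The iRFP intensity ratio was 1.05 and 0.940, and the ratio of total counts per cell was 0.959 and 1.02, also opposite. The iRFP transcript stood at 44.4 and 18.5 CPM in S cells and 39.1 and 16.5 in non-cycling cells (edgeR adjusted p = 0.723).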

How the data were processed

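The deposited table held whole-number counts per gene and cell for 768 wells on 2 plates, and the deposited sorting record held intensity values in arbitrary units with the sort gate. The submitters' processing notes name STAR 2.7.11a, SAMtools, bedtools and HTSeq with GRCm39 (mm39). Their roles, the annotation, strand use and molecular identifiers were not given in the sources used here. Per the labels' protocols, 1 cell was sorted per well, and no doublet caller was run. The plates share 384 well names, and cells were told apart by plate. Reads amplified by PCR are not independent molecules where no identifiers mark them, and intervals cover counting error only. Exact binomial (Clopper-Pearson) 95% intervals were used for shares.

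From the counts, 33757 features were read, of which 24902 had a symbol (features without one held 1.07% of counts), and 1 cell under 1000 genes was left out. Counts were summed per plate and class, which gave 6 sums, and fitted with edgeR 4.0.16 in R 4.3.3 (TMM, filterByExpr by class, quasi-likelihood F-test, terms for class and plate, 2 residual degrees of freedom). P-values were adjusted by Benjamini-Hochberg over all genes tested at a threshold of 0.05, and the 12 score genes were described without a test. Nothing in the labels says that the plates came from separate cultures, so p-values measure only the spread between these sums. Both classes of a plate share its handling, so plate was a block by design. DESeq2 1.42.0, other filters, cuts, scores and depths, and sums per plate and gate were alternatives. Plate values used log2 CPM with a prior count of 2. On simulated counts of 14100 genes for the S against non-cycling comparison, 95% of genes with a log2 change of 1 were called and 100% with 2. Of these calls 9.72% were false, and 0.151% of the unchanged genes were called. In the real data 0.186% of all tested genes were called. The false share depends on how many changed genes were put in, so 9.72% does not give the false share among the 27 genes. The changed genes, 100 of each size, all had a log2 CPM of 4 or more. The noise followed the spread that edgeR estimated from the real sums. These shares do not carry over to lower genes or noisier data, and an uncalled gene is not thereby unchanged. A check of spike-ins planned for depth was not made.

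The members, lists and score genes were chosen with earlier results of these data known. The text named called genes whose mean log2 CPM was 4 or more, up to 12 each way (8 against G2M cells), up to 6 members per list and direction by adjusted p, all clock members and the reporters. Cdca7, Tent5b, Itgb7, Mfap4 and C4b fell outside that rule and were named after their values were seen, to complete the 27 called genes.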

Additional observations from a re-analysis of the deposited data

Results flagged for a closer look

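Forward scatter, iRFP fluorescence and total counts per cell, S over non-cycling cells, went opposite ways on the plates. The log2 ratio of forward scatter was 0.17 on plate 1 and -0.17 on plate 2. For iRFP fluorescence it was 0.068 and -0.09, and for total counts -0.06 and 0.028. The difference between the plates was not tested in any of these, and plate 1 was the high and plate 2 the low iRFP sort.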

How the results depend on the processing

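Counts of called genes depended on how S cells were defined. All 27 genes kept their sign in the 15 settings that gave a count. They were chosen from these same cells, which every setting reuses in part or whole, so the kept signs are no separate support. For S against non-cycling cells edgeR called 84 genes inside Venus gates, 56 after thinning, 195 when ranked inside gates, 1184 with a top 10% cut, 1 with a top 30% cut, 10 with the Mcm score, 1 with the Pcna, Cdc6 and Ccne2 score, 15 with the stricter cell filter and 1893 with the cells high in both scores added. DESeq2 called 407, edgeR without a low-count filter 508, with a stricter filter 80 and from S and non-cycling sums alone 635. Without the replicate block 6 passed. The top 10% class shared only 9 of its 25 cells with the 52.

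The share of calls that were higher was 44.4%. It was 65.5% inside gates, 60.7% after thinning, 69.7% ranked inside gates, 63.8% at the top 10%, 0% at the top 30%, 30% and 0% with the Mcm and the other score, 62.5% with the added cells, 58.0% with DESeq2 and 56.3% with the stricter low-count filter.

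For S against G2M cells, where 15 were called, the counts in the same order were 71, 197, 60, 249, 13, 7, 318, 4 and 210 (193 higher and 17 lower, with 1 of the 15 genes on its earlier side), then 241 with DESeq2, 374 without a filter and 28 with a stricter one. The share higher was 6.67%, and over these settings it ran from 7.69% at the top 30% to 91.9%, with 33.8% inside gates, 39.1% after thinning, 43.3% ranked inside gates, 41.8% at the top 10%, 42.9% and 25.2% with the Mcm and the other score, 25% with the stricter cell filter, 43.6% with DESeq2, 45.7% without a filter and 21.4% with a stricter one. Without the replicate block 0 passed with edgeR, with 1468 at an unadjusted p under 0.05. DESeq2 called 1 held-out marker.

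The mean log2 Venus ratio of 1.06 became 0.74 as a mean over cells, 0.73 after thinning, -0.31 ranked inside gates, 2.06 and 0.15 at the top 10% and 30%, 0.63 and 0.87 with the Mcm and the other score, 0.20 inside blocks and 1.44 with the added cells. The 0.20 is a median over blocks, and ranking inside gates gives every gate the same share of top scores. The iRFP ratio became 0.15 ranked inside gates, 0.10 at the top 30% and 0.11 with the Mcm score. The ratio of totals became 0.12 as a mean over cells, 0.086 ranked inside gates and 0.059 at the top 10%.

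Among 82 genes followed, 1045 of 1391 values kept their side of the threshold, 140 lost the call, 192 gained it and 14 reversed. Of the 1045, 43 changed sign too, all in genes called in neither setting and with an estimate within 2 SE of 0, among them Nr1d1, Dbp and Cry1 inside gates. With the cells high in both scores added, the reversed values were Gins3 1.12, Cdkn1b 0.023, Ccn1 -0.25 and Cdca8 5.28, and at the top 10% Gins3 0.62, Ccn1 -0.019 and Cdca8 2.68. Ranked inside gates they were Nr1d2 -0.047, Tef -0.23 and Per2 -0.14. Tef was also -0.12 inside gates and -0.073 with the Mcm score, Cry2 -0.096 after thinning and Cenpa -0.25 at the top 30%. The cause was not tested. With 1 plate no count could be fitted, so leaving out each plate gave single values only.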

Other observations

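When the scores were ranked inside each Venus gate, 64 cells were S cells, of which 36 were among the 52. edgeR then called 195 of 15116 genes (1.29%), 136 higher and 59 lower. Of the 27 genes called before, 20 passed again and 7 did not. By list, 5 of 26 licensing genes, 4 of 32 polymerase and fork genes, 5 of 24 nucleotide genes, 5 of 23 chromatin assembly genes, 1 of 32 checkpoint genes, 8 of 50 G2/M genes and 6 of 26 ribosome biogenesis genes were called higher, and none of these lists had a lower call. Of the quiescence list 4 of 23 were called lower and 0 higher. The E2F and G1 control list had 3 of 29 higher and 0 lower, and the matrix and contractile list 1 of 31 higher and 4 lower. Of 10 fibroblast markers 1 was called lower, and of 6 tested markers of other cell types 1 was called higher. None of 18 clock genes and none of 15 p53 target genes was called. Cdt1 had a log2 change of 1.93 (edgeR adjusted p = 0.00299), Mcm4 1.35 (0.00258), Hells 1.66 (0.0217) and Timeless, a fork protection protein, 2.14 (0.0486). Shmt2 and Nop56 passed too, with 0.88 each (edgeR adjusted p = 0.00983 for each). Col3a1 fell by 0.68 (edgeR adjusted p = 0.00299) and Pdgfra by 0.66 (0.0124). These calls were looked up after the data were seen.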
